A study of Canis lupus familiaris with 12 samples.

Results

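NFKB1, BIRC2 and BIRC3 were each followed through every array probe assigned to their dog RefSeq transcripts. These 3 genes, of 944 that could be named on the array, had 5 of its 43603 non-control probes. NFKB1 (NM_001003344) had 2 probes, A_11_P050481 and A_11_P054066. BIRC2 (NM_001048023) had 1, A_11_P050476, and BIRC3 (NM_001080725) had 2, A_11_P0000032631 and A_11_P165133. The cells were MDCK (Madin-Darby canine kidney), a line of dog kidney tubule epithelium, kept for 24 h in medium at pH 7.0, acidified through a lower bicarbonate content, or at pH 7.4. All cells had been moved to serum-free medium on the day before. Each of 3 biological replicates gave 1 RNA at pH 7.0 and 1 at pH 7.4, and each RNA went onto 2 one-colour Agilent arrays, so that a group held 6 arrays and 3 RNAs. All cultures were of 1 cell line, and the 4 arrays of a biological replicate shared a slide and a scan date.

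NF-kappaB is a family of transcription factors that receptors for tumour necrosis factor (TNF), interleukin 1 and microbial products switch on by releasing it from inhibitors in the cytoplasm. NFKB1 encodes a precursor that acts as an inhibitor and is also processed to a DNA-binding subunit. BIRC2 and BIRC3 encode cellular inhibitors of apoptosis (cIAPs), RING ubiquitin ligases that sit with TRAF adaptors at the TNF receptor, where they promote NF-kappaB signalling and hold back cell death. They also keep the alternative NF-kappaB pathway low by marking its kinase for destruction. BIRC3 and NFKB1 are themselves known NF-kappaB target genes. In the annotated dog assembly UU_Cfam_GSD_1.0 BIRC2 and BIRC3 lie close together on one chromosome, with 1 other annotated gene between them.

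The 3 genes did not move as one in acid medium. The brightest NFKB1 probe and both BIRC3 probes had higher signal at pH 7.0 in all 3 biological replicates, by 1.42-fold for NFKB1 and by 1.44-fold and 1.89-fold for BIRC3. BIRC2 was lower in all 3 biological replicates, at 0.755 of its signal at pH 7.4. In RNA of whole cultures, fewer cells that express a gene and less RNA per cell cannot be told apart. None of the 5 probes passed limma's moderated test after Benjamini-Hochberg adjustment over the 27138 probes tested (adjusted p from 0.165 to 0.700, threshold 0.05). That threshold was passed by 0% of all tested probes in either direction, so it separates none of them. The smallest limma adjusted p of all tested probes was 0.0502, just above it. At an unadjusted limma p under 0.05 the member probes had 1 call higher and 0 lower, where 6.48% of all tested probes were called higher and 5.77% lower. The same direction in all 3 biological replicates was found for 3 of the 5 member probes on the higher side, against 18.0% of all tested probes, and for 1 on the lower side, against 15.7%. The higher side included both BIRC3 probes, which read 1 gene in the same RNAs and correlated at r = 0.94.

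**Figure D1:**
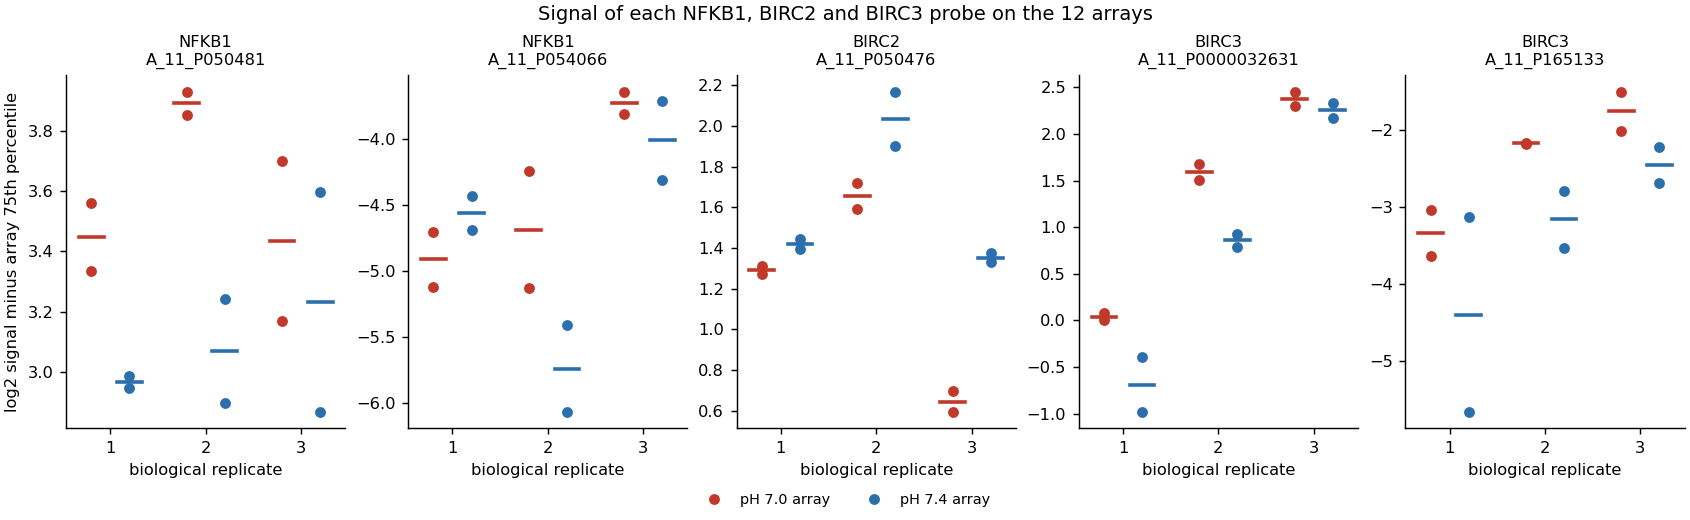
Normalised signal (log2 of the processed Cy3 signal minus the array's 75th percentile) of the 5 probes on the 12 arrays, by biological replicate, with 1 point per array and a bar at the mean of the 2 arrays of an RNA. Levels can be compared within a panel only, and each panel has its own axis. BIRC2 lies lower at pH 7.0 than at pH 7.4 on every slide, and both BIRC3 probes differ more between biological replicates than between the media.

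Signal is given as log2 of the processed Cy3 intensity minus the array's 75th percentile, so that 0 means a spot at that percentile and 1 unit is a doubling. NFKB1, the subunit gene, was bright on A_11_P050481. Over the arrays it had a lowest value of 3.17, a median of 3.63 and a highest of 3.93 at pH 7.0, against 2.87, 2.97 and 3.60 at pH 7.4. The ranges overlapped, through the arrays of biological replicate 3. The RNAs of biological replicates 1, 2 and 3 stood at 3.45, 3.89 and 3.43 at pH 7.0, and at 2.97, 3.07 and 3.23 at pH 7.4. All 3 RNAs at pH 7.0 were above all 3 at pH 7.4. Of the 5 member probes this was the 1 so separated on the higher side, against 4.48% of all tested probes, and 0 were on the lower side, against 3.61%. Means were 3.59 ± 0.26 at pH 7.0 and 3.09 ± 0.13 at pH 7.4 (SD, n = 3 RNAs each). The log2 change, pH 7.0 minus pH 7.4, was 0.50 ± 0.23 (SE of the limma fit, 95% interval -0.017 to 1.02, adjusted p = 0.420). It was 0.48, 0.82 and 0.20 in biological replicates 1 to 3. The 2 arrays of an RNA differed by up to 0.73, which was the case at pH 7.4 in biological replicate 3, and by a median of 0.29. In that biological replicate the change was smaller than the gap between duplicate arrays.

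A_11_P054066, the other NFKB1 probe, was dim and told less. Its signal was called well above background on the arrays of biological replicates 1 and 3, 4 in each medium, and on none of the 4 arrays of biological replicate 2. Its array values ran from -5.13 to -3.64 at pH 7.0 and from -6.07 to -3.71 at pH 7.4. The change was 0.33 ± 0.29 (limma adjusted p = 0.700), with -0.35, 1.06 and 0.28 in biological replicates 1 to 3. Its largest pair difference came from the biological replicate in which the probe was not well above background, and without that biological replicate the estimate had the opposite sign, -0.034. With normexp, a model-based subtraction of the local background, it was -0.57. Across the 6 RNAs the pair of NFKB1 probes correlated at r = 0.20, a description over RNAs that share slides in pairs.

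BIRC2, which encodes cIAP1, was well above background and unsaturated on every array. Its lowest, median and highest array values were 0.59, 1.29 and 1.72 at pH 7.0, against 1.33, 1.42 and 2.17 at pH 7.4. Over all arrays the groups overlapped, and biological replicate 2 had higher BIRC2 signal in both media than the others. Within each of the 3 slides both arrays at pH 7.0 were below both arrays at pH 7.4. BIRC2 was the 1 member probe separated in this way on the lower side, against 3.78% of all tested probes, and 0 member probes were so separated on the higher side, against 4.29%. The RNAs of biological replicates 1 to 3 were at 1.29, 1.65 and 0.64 at pH 7.0, and at 1.42, 2.04 and 1.35 at pH 7.4. The means were 1.20 ± 0.51 at pH 7.0 and 1.60 ± 0.38 at pH 7.4 (SD, n = 3 RNAs each).

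The log2 change of BIRC2 was -0.41 ± 0.23 (95% interval -0.92 to 0.11, limma adjusted p = 0.519). By biological replicate it was -0.13, -0.38 and -0.71, so that biological replicate 3 gave the largest difference and biological replicate 1 the smallest. Without biological replicate 3 the estimate was -0.25. With normexp BIRC2 stood also at -0.25, on a scale where the median of all tested probes was -0.19, and so 0.055 below that median. Duplicate arrays of an RNA differed by a median of only 0.076 and at most 0.27 for this probe, and the change in biological replicates 2 and 3 exceeded that widest gap in size. The 3 pair differences of BIRC2 had an SD of 0.29. Its limma SE combines that spread with the spread of all tested probes.

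BIRC3, which encodes cIAP2, had a bright probe, A_11_P0000032631, that was well above background and unsaturated on all arrays. Array values had a lowest of 0.0026, a median of 1.59 and a highest of 2.45 at pH 7.0, against -0.99, 0.86 and 2.34 at pH 7.4. These ranges overlapped, with both pH 7.4 arrays of biological replicate 1 below every array at pH 7.0. The RNAs of biological replicates 1 to 3 stood at 0.038, 1.59 and 2.38 at pH 7.0, and at -0.69, 0.86 and 2.25 at pH 7.4. Averaged over the media, BIRC3 signal was 2.64 log2 units apart between biological replicates 3 and 1, the widest gap of the 5 probes and wider than the change with acid. This gap was 0.85 for BIRC2 and 0.27 for the brighter NFKB1 probe.

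Within the pairs, BIRC3 on that probe changed by 0.73, 0.73 and 0.12, with an estimate of 0.53 ± 0.24 (95% interval -0.0012 to 1.05, limma adjusted p = 0.409). On slides 1 and 2 both arrays at pH 7.0 were above both at pH 7.4, and on slide 3 they overlapped. The means over RNAs were 1.33 ± 1.19 at pH 7.0 and 0.81 ± 1.47 at pH 7.4 (SD, n = 3 RNAs each), and these SDs exceed the change. Fitted with no replicate block the SE was 0.81 in place of 0.24, with the same estimate and an adjusted p of 1.00.

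The dimmer BIRC3 probe, A_11_P165133, had the largest change of the 5 probes. Its lowest, median and highest array values were -3.63, -2.17 and -1.50 at pH 7.0, against -5.67, -2.96 and -2.22 at pH 7.4. It was well above background on all arrays, but at low processed signal, 57.3 to 285 at pH 7.0 and 14.5 to 149 at pH 7.4. The RNAs of biological replicates 1 to 3 stood at -3.34, -2.17 and -1.76 at pH 7.0, and at -4.40, -3.16 and -2.46 at pH 7.4. The pair differences were 1.06, 0.99 and 0.70. The estimate was 0.92 ± 0.22 (95% interval 0.42 to 1.42, limma adjusted p = 0.165). It was the 1 member probe with an unadjusted limma p under 0.05, and by that p it ranked 372nd of the 27138 probes.

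That larger estimate leaned on 1 array. In biological replicate 1 at pH 7.4 the duplicate arrays read -5.67 and -3.13 on A_11_P165133, a gap of 2.54, where the median gap for this probe was 0.55. Without the lower of them, pH 7.4 array 1, the change of this BIRC3 probe was 0.49 ± 0.26 (limma adjusted p = 0.424), close to that of the brighter probe. Without the other, array 2, it was 1.34. That RNA also had the widest duplicate gap over all tested probes, with a median of 0.47 against 0.17 to 0.39 for the other RNAs. Under normexp background correction the probe stood at 0.025, 0.22 above the median of all tested probes on that scale. The brighter BIRC3 probe stood at 0.56 there, 0.75 above the median. The pair of BIRC3 probes followed each other over the 6 RNAs (r = 0.94), and both had their lowest level in biological replicate 1 and their highest in biological replicate 3 in each medium.

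**Figure D2:**
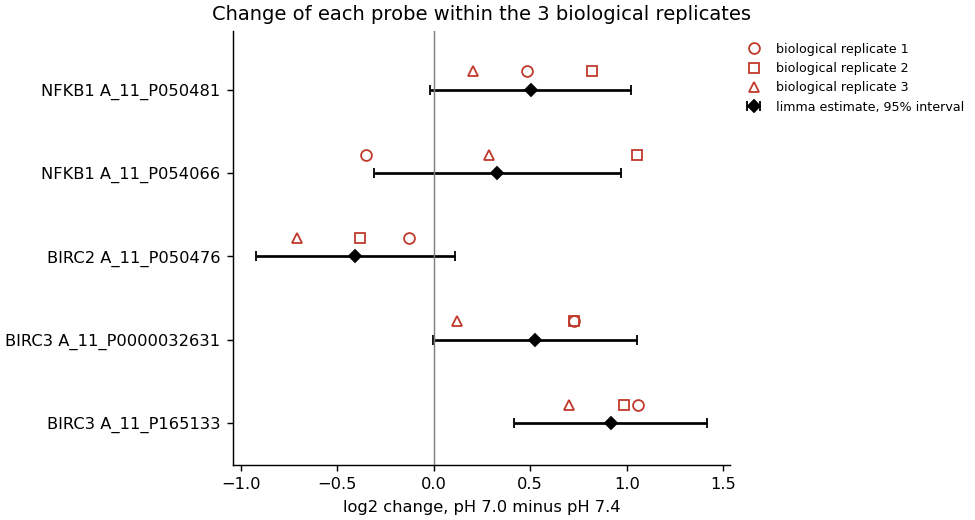
Log2 change, pH 7.0 minus pH 7.4, of the 5 probes. Open symbols are the 3 biological replicates and diamonds the limma estimates with their 95% intervals. The interval excludes 0 for the dimmer BIRC3 probe only, before any adjustment for the number of probes.

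The opposite directions of the neighbouring cIAP genes were compared within each RNA, where the scaling of the array cancels. The change of BIRC3 (A_11_P0000032631) minus the change of BIRC2 was 0.86, 1.11 and 0.83 in biological replicates 1 to 3. Its mean was 0.93 ± 0.15 (SD, n = 3 pairs), which means that BIRC3 signal relative to BIRC2 was 1.91-fold higher at pH 7.0. All 3 pairs had the same direction, which follows from BIRC3 being higher and BIRC2 lower in each of them. The exact permutation test over the pairs therefore had to give p = 0.25, two-sided, the smallest value that 3 pairs allow. The spread of this difference was below that of either change alone, whose SD over the pairs was 0.35 for BIRC3 and 0.29 for BIRC2. Biological replicate 3 had both the smallest BIRC3 difference, 0.12, and the BIRC2 difference furthest below 0, -0.71. With the dimmer BIRC3 probe the difference was 1.32 ± 0.12, and 1.19, 1.37 and 1.41 by biological replicate, a comparison added after the values were seen. With normexp background correction and the brighter probe it was 0.80.

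**Figure D3:**
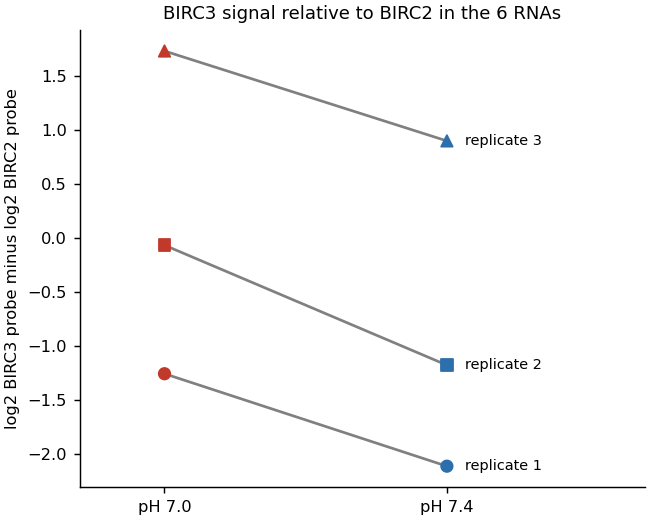
Log2 signal of the brighter BIRC3 probe minus that of the BIRC2 probe in the 6 RNAs, with lines joining the media within a biological replicate. The position on the vertical axis has no meaning of its own, since probes differ in brightness, but the step from one medium to the other does: it lies between 0.83 and 1.11 in all 3 biological replicates.

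The NFKB1 change on A_11_P050481 also exceeded that of BIRC2 in all 3 pairs, by 0.61, 1.20 and 0.91, with a mean of 0.91 ± 0.30 (SD, n = 3 pairs, exact permutation p = 0.25, the smallest possible). Here too the shared direction, and with it that p, was set by the directions of the single changes. Between the brighter BIRC3 probe and NFKB1 the changes differed by 0.025 ± 0.19, with both signs among the pairs (exact permutation p = 1, n = 3 pairs). The dimmer BIRC3 probe was above the brighter one in each pair, by a mean of 0.39 ± 0.17 (exact permutation p = 0.25, n = 3 pairs). These were 6 differences in one family, of which 3 pairs each cannot bring any below 0.05. The median change of all tested probes was -0.017, 0.022 and 0.048 in biological replicates 1 to 3, so the array scaling left the bulk of the probes near 0 in every pair.

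Other genes of the pathway could be read only in part, because only 1484 probes, 3.40% of the array, had a transcript with a gene symbol. The pathway lists held 121 genes, of which 39 had a named probe and 28 a tested one. They were picked with results of these data known. By the brightest tested probe, members included, 21 of the 28 were higher and 7 lower, with a median log2 change of 0.45, against 0.011 over all tested probes and 0.077 over the 599 tested named genes. None passed limma's adjusted threshold. At an unadjusted limma p under 0.05, 8 were higher and 0 lower. In all 3 biological replicates 10 were higher and 1 lower, against 18.0% and 15.7% of all tested probes. Without biological replicate 2 the median of the 28 was 0.19, with 19 higher and 9 lower. Of the 599 named genes, 363 were higher and 236 lower, and 63 were higher and 21 lower at that unadjusted p. Over all 27138 tested probes 13921 were higher and 13217 lower.

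NFKB1 was the only 1 of 5 NF-kappaB subunit genes with a named probe. The inhibitors and feedback regulators, 9 genes, and the IKK kinases and adaptors, 27 genes, had no named probe and were not analysed here. In the IAP family and its antagonists 4 of 9 genes were tested. Besides BIRC3 and BIRC2 these were BIRC5, encoding survivin, a regulator of cell division, at 0.26 ± 0.22 (0.21, 0.45 and 0.11 by biological replicate), and DIABLO, which encodes a mitochondrial antagonist of IAPs, at 0.0070 ± 0.22. The 2 tested cell death genes downstream of the TNF receptor did not pass either. CASP9, the initiator caspase of the mitochondrial pathway, stood at 0.20 ± 0.26 and CASP8, the initiator caspase of death receptors, at -0.0052 ± 0.24.

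Upstream of the pathway, 7 of 32 ligand and receptor genes were tested, with 3 higher and 4 lower and a median of -0.033. CD40, a TNF receptor family member that signals through TRAFs and cIAPs, was at 0.86 ± 0.26, with 0.63, 1.47 and 0.47 by biological replicate (limma adjusted p = 0.234), and its other probe stood at 0.89. The receptor TLR1 was at 0.57 ± 0.22 (adjusted p = 0.342) and dim: 5 arrays at pH 7.0 and 3 at pH 7.4 had it well above background. LTB, a ligand of the alternative pathway, stood at 0.44 ± 0.32 and TLR9, a receptor for microbial DNA, at -0.35 ± 0.29. TNF itself, named here after its values were seen, was at -0.096 ± 0.22.

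Among the known target genes 14 of 29 were tested, 13 of them higher and 1 lower, with a median of 0.67, beside the 363 higher of 599 named genes. Without biological replicate 2 the median was 0.29, with 11 higher and 3 lower, and with normexp it was 0.25, again with 11 and 3. Normexp moved the median of all tested probes to -0.19, and 12 of the 14 targets were above the median of all tested probes both with it and as reported. None passed over all probes in limma, with CSF2 closest at an adjusted p of 0.0502. At an unadjusted limma p under 0.05, 6 were higher and 0 lower, beside 63 higher and 21 lower of the 599 named genes. In all 3 biological replicates 5 of the 14 were higher and 0 lower, against 18.0% and 15.7% of all tested probes. The 13 higher by estimate included PTGS2 at 0.037 and MYC at 0.0014, both named after their values were seen. The 4 of lowest p, a choice that itself favours 1 direction, were higher in all 3 biological replicates, against 18.0% of all tested probes. They were CSF2, the growth factor GM-CSF, at 3.11 ± 0.38, and the chemokines CCL4 (1.37 ± 0.29), CCL2 (1.64 ± 0.35) and CXCL8 (0.86 ± 0.30). Their pair differences were lowest in biological replicate 1 and highest in biological replicate 2, at 1.83, 4.11 and 3.39 for CSF2 and 0.73, 2.81 and 1.38 for CCL2. The brighter NFKB1 probe was likewise highest in biological replicate 2 but lowest in biological replicate 3, at 0.48, 0.82 and 0.20. The brighter BIRC3 probe had equal differences in biological replicates 1 and 2 and also its lowest in biological replicate 3. Survival genes of the Bcl-2 family did not pass, with BCL2L1 at 0.22 ± 0.23 and BCL2, the 1 lower target, at -0.14 ± 0.30, both singled out after their values were seen.

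**Figure D4:**
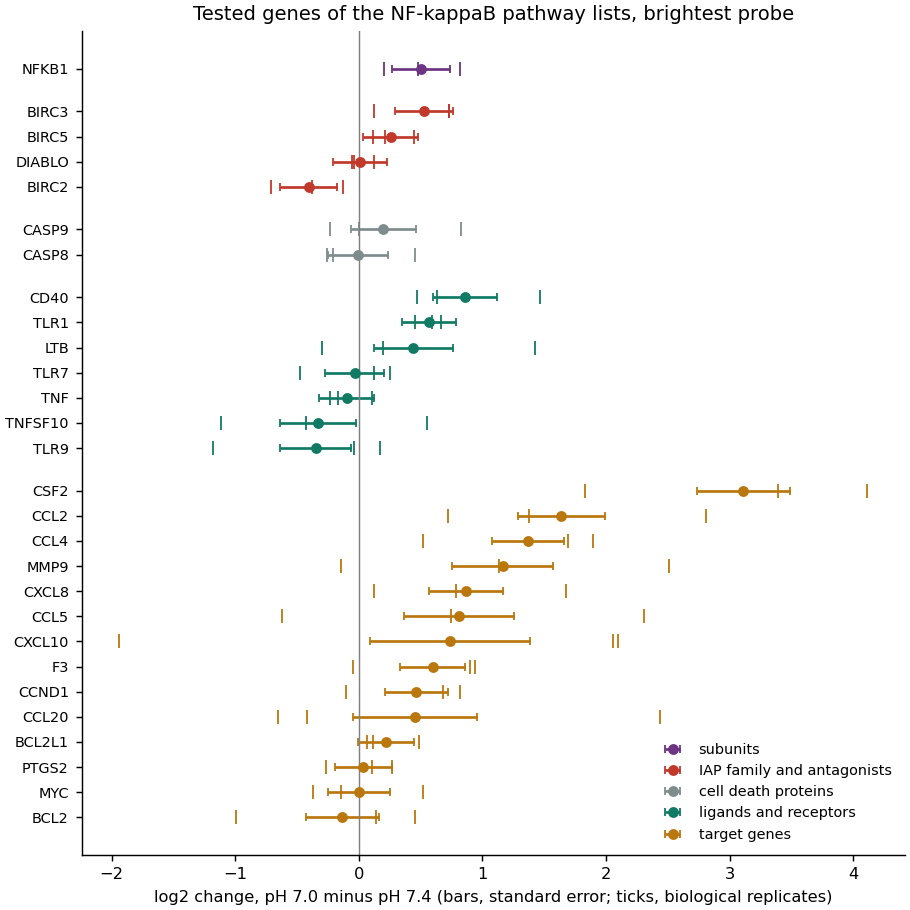
Log2 change, pH 7.0 minus pH 7.4, of the 28 tested pathway genes by their brightest probe (points, limma estimates; bars, standard errors; ticks, the 3 biological replicates). Of the 14 target genes 13 lie above 0 and CSF2 lies furthest out at 3.11, while BIRC2 is the lowest gene of the figure at -0.41. Saturation touched the brightest MMP9 probe on 4 arrays at pH 7.0 and 2 at pH 7.4.

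The named genes whose pattern over the 6 RNAs was most like that of each member were found among 598 others. For NFKB1 these were DLA88 (Pearson r = 0.96), a dog major histocompatibility class I gene, and ZP2 (0.95), an egg coat glycoprotein. The least like NFKB1 was CRH (-0.83), corticotropin-releasing hormone. BIRC2 was followed most closely by GALC (0.97), a lysosomal galactocerebrosidase, LATS1 (0.96), a kinase of the Hippo pathway, and CRYGS (0.96), a lens crystallin. Its least like gene was NR4A1 (-0.98), an early-response nuclear receptor, at 0.86 ± 0.34. By Spearman rank correlation CRYGS stood at 0.66 and NR4A1 at -0.77, weaker than their Pearson r, beside 0.94 for GALC and for LATS1. For BIRC3 the leaders were FHIT (0.98), RHCE (0.98), of the Rh blood group family, and BDKRB2 (0.96), the bradykinin B2 receptor, and the least like was PTH (-0.97), parathyroid hormone. The changes with acid were 0.21 ± 0.24 for FHIT, 0.19 ± 0.22 for RHCE and 0.51 ± 0.22 for BDKRB2, beside 0.53 ± 0.24 for BIRC3. These likenesses rest on 6 RNAs that share slides in pairs, and are a description.

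The arrays differed in ways the media do not. An array had between 49.4% and 70.4% of its probes well above background, with the 4 arrays of biological replicate 2 lowest, at 49.4% to 54.1%. The 75th percentile of processed signal lay between 410 and 944, in both media. Of the 4 epithelial markers with a named probe, CTNNB1, CGN and OCLN were well above background on all 12 arrays. CLDN2, a tight junction claudin, was so on 5 arrays at pH 7.0 and 3 at pH 7.4, with a log2 change of 1.15, and was the 1 tested marker with an unadjusted limma p under 0.05 (0.0027). Markers of other cell types were not all dark. Among 4 fibroblast markers COL1A1 and COL1A2 were well above background on all 12 arrays, PDGFRB on 5 arrays in each medium, and DCN on none at pH 7.0 and 1 at pH 7.4. Of 2 endothelial markers VWF was so on all 12 arrays, and KDR on 1 at pH 7.0 and 2 at pH 7.4. Of 2 leukocyte markers CD8A was so on 4 at pH 7.0 and 3 at pH 7.4, and CD4 on 3 at pH 7.0 and 2 at pH 7.4. The log2 changes of the 5 tested markers of these other types lay between -0.21 and 0.43. The part of the marker genes in the member changes was not tested.

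**Figure D5:**
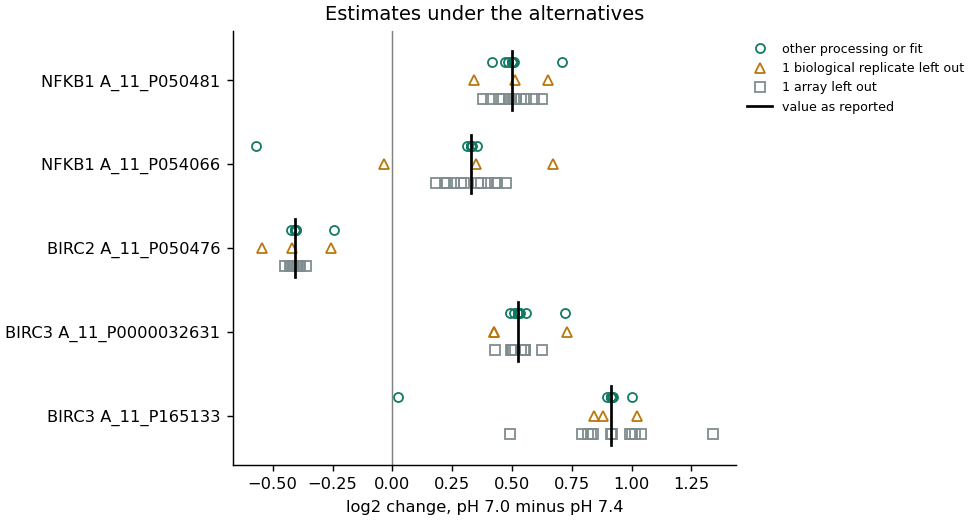
Estimates of the log2 change of the 5 probes under other processing or fits (circles), with 1 biological replicate left out (triangles) and with 1 array left out (squares), beside the value as reported (line). The brighter NFKB1 and BIRC3 probes stay above 0 and BIRC2 stays below 0 under all 27 alternatives for each, while the dimmer NFKB1 probe changes sign under 2 of 25. Alternatives that change only the error or the set of probes tested, such as another filter or prior, repeat the reported estimate. Leaving out 1 biological replicate cannot reverse a probe whose 3 pair differences share a sign.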

How the data were processed

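The authors' scanner files hold Cy3 intensity for each spot, per the file headers, and Agilent Feature Extraction 10.7.3.1 is named in the submitters' processing notes. Control spots and 128 outlier spots were removed. Values were log2 of the processed signal, averaged over a probe's spots, less the 75th percentile of the array, and then averaged over the 2 arrays of an RNA. Testing required a signal well above background on 6 or more of 12 arrays. The change was fitted with limma 3.58.1 in R 4.3.3 with the biological replicate as a block, two-sided, and adjusted over all 27138 probes by the Benjamini-Hochberg method at 0.05. The fit was tested on simulated data. The design text states the pairing, and file names group the arrays likewise. Across probes the deviations of paired RNAs had correlations of 0.394, 0.637 and 0.807 for biological replicates 1 to 3. Unmatched RNAs had correlations between -0.628 and 0.255. The deviations were from the mean of a group's 3 RNAs and so sum to 0 within a group. Positive correlations of paired RNAs therefore force negative ones among the unmatched. Since a biological replicate is also 1 slide, a shared culture and a shared slide cannot be told apart here. P-values refer to the spread between 3 pairs of RNAs of 1 cell line, which limit the precision. The exception is the fit of all 12 arrays with the RNA as a random block. It put the correlation of the 2 arrays of an RNA at 0.164, so duplicates counted largely as separate samples. Its p-values and calls therefore rest partly on duplicate arrays. In limma the spread between pairs is moderated towards the spread of all tested probes. Without biological replicate 2 all 5 member probes had the same SE, 0.364, whatever their own spread. With normexp their SEs were 0.406 to 0.408, against 0.223 to 0.285 as reported. Under these alternatives p measured little of a probe's own spread. The part of this in the calls was not tested.

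The deposited value table holds log2 values with scale and centring not stated by the authors. It matched the values here once these were centred on the median of each probe, with slopes from 0.99975 to 1.0004, and no ratio direction applies. For arrays 1 to 6 at pH 7.0 the medians of its columns were -0.113, -0.150, 0.226, 0.213, -0.226 and 0.0170. At pH 7.4 they were 0.0197, -0.212, 0.213, 0.0793, -0.0855 and 0.0656.

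Gene symbols came from RefSeq accessions without version, matched to the annotation of UU_Cfam_GSD_1.0, for 1484 of 43603 probes. A gene was taken by its brightest tested probe. The members, the pathway lists and the naming rule were chosen with earlier results of these data known. The rule named every tested gene of lists of 6 or fewer, and otherwise the 4 of lowest p and those with 1 direction and unadjusted p under 0.05, and for likeness the 3 highest r and the lowest. One gene that this rule names is not reported here. Alternatives were no replicate block, all 12 arrays with the RNA as a random block, normexp with an offset of 50 on the median signal, other scalings, the value table, other filters, outlier spots kept, another prior, the mean of a gene's probes, and leaving out each biological replicate and array.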

Additional observations from a re-analysis of the deposited data

How the results depend on the processing

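None of the 5 probes passed an adjusted p of 0.05 under any alternative tried. NFKB1 on A_11_P050481 and BIRC3 on A_11_P0000032631 stayed higher and BIRC2 lower under all 27, and BIRC3 on A_11_P165133 stayed higher under all 26. Without 1 biological replicate they ranged from 0.34 to 0.65, 0.43 to 0.73, -0.54 to -0.25 and 0.84 to 1.02. The lowest adjusted p of each was 0.210, 0.141 and 0.191 with the random RNA block, and 0.0855 over probes detected on all 12 arrays. Some alternatives could not change a direction. Dropping the block, the random RNA block, the other filters and the other prior alter only the error and p of an estimate. The mean of a gene's probes likewise repeats the value of BIRC2, which has 1 probe. Leaving out a biological replicate cannot reverse the brighter NFKB1 probe, either BIRC3 probe or BIRC2, whose 3 pair differences share a sign. For BIRC2 leaving out 1 array cannot do so either, since its arrays were separated within each of the 3 slides. NFKB1 on A_11_P054066 reversed with normexp (-0.57) and without biological replicate 2 (-0.034), against 0.67 without biological replicate 1. Dim signal limits this probe and the dimmer BIRC3 probe, and the cause of these shifts was not tested. With no replicate block every estimate was the same, NFKB1 at 0.50 and BIRC2 at -0.41, with adjusted p of 1.00. The replicate block changed no call.

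The number of probes called over the whole array, 0 higher and 0 lower as reported, was 396 and 294 with all 12 arrays and the RNA as a random block, 90 and 44 over probes detected on all 12 arrays, 85 and 50 with a prior that follows mean signal, 17 and 7 with array median scaling, and 10 and 4 with normexp. Leaving out 1 biological replicate or array gave 0 to 203 higher and 0 to 447 lower. Omitting biological replicate 1 gave 203 higher and 75 lower. Omitting biological replicate 2 gave 200 and 447, with the same SE for all 5 member probes. Dropping array 6 at pH 7.0 gave 10 and 5, and dropping array 1 at pH 7.4 gave 4 and 0. The cause was not tested. The difference between the BIRC3 and BIRC2 changes ranged from 0.80 to 1.32 over its 6 alternatives. Alternatives for the pathway lists under other scalings and without 1 biological replicate were chosen after seeing the data. Lower genes were 11 of 28 with normexp (median 0.11), which moved the median of all tested probes to -0.19; 19 of the 28 and 12 of the 14 targets were above that median, and equally many were above the median of all tested probes without normexp. Lower targets were 3 of 14 with normexp (median 0.25) and with quantile normalization, and 2 with the percentile over probes detected on all arrays. Leaving out 1 biological replicate gave 19 to 22 higher, 6 to 9 lower and medians of 0.19 to 0.46 for all lists, and 11 to 13, 1 to 3 and 0.29 to 0.97 for the targets. Of the 28 pathway genes, 0 as reported, 2 with normexp, 1 with array median scaling, 3 when biological replicate 1 was omitted and 1 when biological replicate 2 was omitted passed over all probes. The pathway counts, 21 higher and 7 lower, were the same when a gene's tested probes were averaged and when the replicate block was dropped.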

Other observations

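The dimmer BIRC3 probe on pH 7.4 array 1 came close to the limit for a single value that stands apart from its group of 6 arrays, with a gap to the next array of 0.619 of the range of the group, and none of the 10 groups of member values passed it. The arrays of a group are not 6 independent samples, since they come in pairs from 1 RNA.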
